A study of Mus musculus with 2 samples.

Results

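The 9 genes described here are those of 2 ligands that endothelial cells respond to, *Vegfa* and *Adm*, of their receptors and co-receptors *Flt1*, *Kdr*, *Nrp1*, *Calcrl* and *Ramp2*, and of 2 proteins of permeable capillary endothelium, *Plvap* and *Emcn*. They were chosen by their symbols, with earlier results of these data known. All 9 were found among the 27998 genes of both count matrices and in the deposited table of cluster means. The cells came from the neurohypophysis (NH), the posterior lobe of the pituitary, of male C57BL/6 mice aged 3 months. NH of 5 mice were dissected into each of 2 pools, dissociated with Liberase TM and papain, and captured in droplets with the 10X Chromium version 2 chemistry. All mice were untreated wild-type animals of one group, so the comparison made here is between cell types and not between conditions. Each pool was the replicate, and no single animal can be read from it.

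VEGFA is a secreted growth factor that acts on the endothelial receptor tyrosine kinases FLT1 (VEGFR1) and KDR (VEGFR2), with neuropilin 1 (NRP1) as a co-receptor. Adrenomedullin, the product of *Adm*, is a vasodilator peptide whose receptor consists of the G protein-coupled receptor CALCRL and the accessory protein RAMP2. Capillaries of the NH lack a blood-brain barrier and are fenestrated, that is, pierced by small pores that let the hormones oxytocin and vasopressin reach the blood. PLVAP forms the diaphragms of these pores, endomucin (EMCN) is a sialomucin of the endothelial surface, and VEGF signalling is known to maintain fenestrae in endocrine organs.

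The genes lie in the GRCm38 annotation as follows. The ligand genes are *Vegfa* (ENSMUSG00000023951) at chr17:46016993-46032369 (minus strand) and *Adm* (ENSMUSG00000030790) at chr7:110627661-110629820 (plus strand). The VEGF receptor genes are *Flt1* (ENSMUSG00000029648) at chr5:147561604-147726011 (minus strand) and *Kdr* (ENSMUSG00000062960) at chr5:75932827-75978458 (minus strand), and the co-receptor gene is *Nrp1* (ENSMUSG00000025810) at chr8:128358604-128503363 (plus strand). The adrenomedullin receptor genes are *Calcrl* (ENSMUSG00000059588) at chr2:84330626-84425411 (minus strand) and *Ramp2* (ENSMUSG00000001240) at chr11:101246028-101259546 (plus strand). The genes of permeable endothelium are *Plvap* (ENSMUSG00000034845) at chr8:71497765-71511752 (minus strand) and *Emcn* (ENSMUSG00000054690) at chr3:137341067-137432185 (plus strand). Counts cover whole genes, and no isoform was told apart.

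The start sites of the genes of both groups are shown because the ligand genes and the vascular genes turned out to be detected in different cells. RefSeq promoter windows of build GRCm38.p6 matched 7 of the 9 genes, with 8 windows, since *Vegfa* has a second start. The last 250 bases before each start are considered. Capitals mark 2 motifs searched on both strands, the hypoxia response element core ACGTG, which reads CACGT on the other strand, and the ETS core GGAAG, which reads CTTCC there. The windows printed are those of *Vegfa* at chr17:46032378-46032627 on the minus strand, *Adm* at chr7:110627407-110627656 on the plus strand, *Flt1* at chr5:147726012-147726261 on the minus strand and *Emcn* at chr3:137340828-137341077 on the plus strand.
Vegfa: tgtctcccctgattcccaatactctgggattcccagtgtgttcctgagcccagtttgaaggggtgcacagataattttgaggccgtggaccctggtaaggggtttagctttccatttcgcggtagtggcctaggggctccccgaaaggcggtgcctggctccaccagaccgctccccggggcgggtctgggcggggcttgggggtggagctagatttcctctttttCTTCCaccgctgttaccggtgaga
Adm: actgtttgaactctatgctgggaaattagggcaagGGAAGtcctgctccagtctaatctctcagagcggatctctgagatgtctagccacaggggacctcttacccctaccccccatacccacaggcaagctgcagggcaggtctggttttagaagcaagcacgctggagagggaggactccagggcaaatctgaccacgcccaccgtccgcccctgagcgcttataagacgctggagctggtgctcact
Flt1: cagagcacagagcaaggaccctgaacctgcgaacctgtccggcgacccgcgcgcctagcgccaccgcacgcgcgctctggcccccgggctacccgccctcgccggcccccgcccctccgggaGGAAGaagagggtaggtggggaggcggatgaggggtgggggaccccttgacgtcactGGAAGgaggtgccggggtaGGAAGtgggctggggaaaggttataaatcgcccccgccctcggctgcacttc
Emcn: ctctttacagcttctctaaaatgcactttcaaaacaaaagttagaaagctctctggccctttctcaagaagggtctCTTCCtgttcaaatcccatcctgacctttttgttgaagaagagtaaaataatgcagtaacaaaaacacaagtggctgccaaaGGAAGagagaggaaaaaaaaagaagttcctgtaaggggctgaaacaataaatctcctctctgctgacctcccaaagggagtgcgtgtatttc
The ETS core was in all 8 windows, including those of *Vegfa* and *Adm*, and in 64.1% of the 32851 RefSeq windows of this length. The hypoxia core was in 1 of the 8 windows, that of the second *Vegfa* start, and in 16.6% of all windows. That window, at chr17:46025164-46025413, is not printed and lies inside the *Vegfa* gene, downstream of its first start. A match gives letters only and not a bound site.

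After the limits of the study, 273 cells of pool 1 and 255 of pool 2 remained, with a median of 2050 and 2330 unique molecular identifiers (UMIs) per cell. A UMI stands for 1 captured mRNA molecule. No barcode was shared between the kept cells of the pools. Each cell was placed in 1 of the 11 clusters of the authors, which form 7 types: 196 pituicytes, the glia of the NH, 148 cells of the adjacent intermediate lobe (IL cells, deposited as neural progenitor a and b), 95 macrophage/microglia, 42 T-cell like cells, 23 epithelial-like cells, 13 vascular endothelia and 11 vascular and leptomeningeal cells (VLMC, deposited as OPC/LVMC). The endothelia are few, 6 cells of pool 1 with 11346 UMIs and 7 of pool 2 with 12488 UMIs, so a count of 0 in them allows a level of up to 126 CPM over both pools, the level of 3 counts. CPM are the UMIs of a gene scaled to the total UMIs of the summed cells. Of 10 endothelial markers other than the 9 genes, 9 were highest in this type, with a summed level of 8990 and 7848 CPM, against at most 861 CPM in any other sum. *Cldn5*, which encodes the claudin of blood-brain barrier junctions, had 0 UMIs in them. Of 10 pericyte and smooth muscle markers, 9 were at 0 in the endothelia and the tenth, *Rgs5*, stood at 1234 and 721 CPM. Most of its UMIs were in 1 cell of each pool, with 10 UMIs in pool 1 and 8 in pool 2. Of 5 lymphatic markers, 4 were at 0 in the endothelia and *Flt4* was at 0 and 320 CPM. Hormone genes of the anterior lobe summed to 2292 and 240 CPM in the endothelia. In the VLMC, 2 cells, 1 in each pool, held 161 and 266 oligodendrocyte marker UMIs, and no UMI of the 9 genes. The other VLMC cells held at most 3 such UMIs.

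Levels were compared between types within a gene, and not between genes, since reads of this chemistry come from the 3' end of mRNAs. Counts were summed per type and pool, giving 14 sums. In edgeR's quasi-likelihood test, 1 type was contrasted with the average of the remaining 6. A gene counted as called when its Benjamini-Hochberg adjusted p, taken over all 4510 genes tested, did not exceed 0.05 and its natural log fold was 1 or more in size. All 9 genes were among those tested, each of them through the types in which it was high. The same holds for genes of the fixed lists that were high in 1 type only. The clusters were built from these cells with genes that may include the 9, so the calls are not independent of the types. The study used *Vegfa* to define pituicytes, chose *Emcn*, *Flt1* and *Plvap* as endothelial feature genes and reported *Adm* as a pituicyte marker. For these genes, a high level in that type was partly given in advance. Where a gene had 0 UMIs in other types, the size of the fitted fold rests on edgeR's prior count, and ratios of CPM are given beside it. The test gives no standard error. The SE printed with a fold is the size of the fold divided by the square root of its F statistic, and is approximate. The median log2 fold of all genes tested was 0.59 for pituicytes, 0.42 for macrophage/microglia, 0.45 for epithelial-like cells and -0.49 for vascular endothelia. Scaled by library size alone, these medians were 0.39, -0.09, 0.61 and 0.22, and every call on the 9 genes held under that scaling.

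The 2 ligand genes were both high in pituicytes and low or at 0 in the other 6 types. *Vegfa* stood at 505 CPM in pituicytes of pool 1, from 119 UMIs, and at 568 CPM in those of pool 2, from 144 UMIs. In the other types it was between 0 and 67.7 CPM, the latter from 4 UMIs in 3 epithelial-like cells of pool 2. No UMI of *Vegfa* was found in vascular endothelia, VLMC or macrophage/microglia of either pool. Pituicytes thus held 96.3% of all *Vegfa* UMIs of the kept cells and 37.1% of the cells. Pituicyte pools did not overlap with those of any other type, and every lower neighbour in the order (epithelial-like, IL cells, T-cell like and the 3 types at 0) overlapped with the next.

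*Adm* was also highest in pituicytes. It stood at 446 CPM in pituicytes of pool 1, from 105 UMIs, and at 513 CPM in those of pool 2, from 130 UMIs. Its highest level elsewhere was 34.4 CPM, from 1 UMI in a T-cell like cell of pool 2. Vascular endothelia, VLMC and epithelial-like cells had 0 UMIs of *Adm*, and pituicytes held 96.7% of them.

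**Figure D1:**
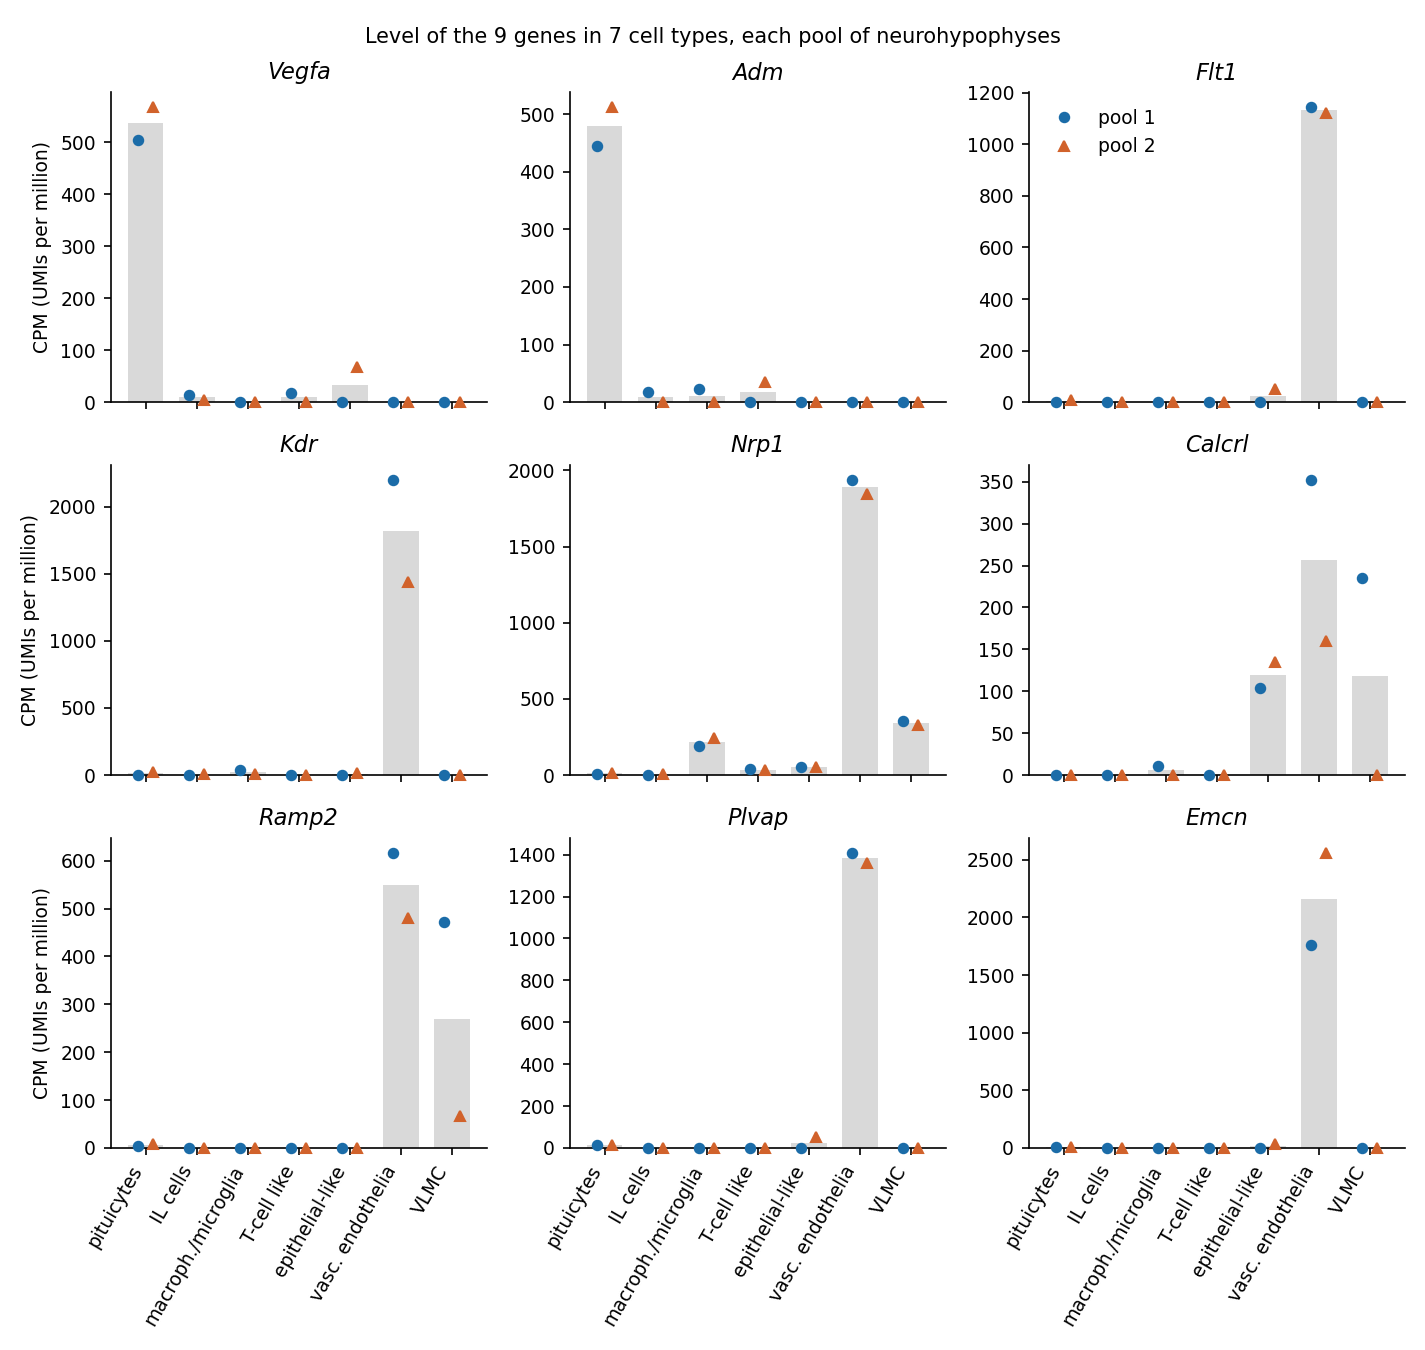
Level of each of the 9 genes in the 7 cell types, as CPM from UMI counts summed per type. Circles are pool 1, triangles pool 2 and grey bars the mean of the 2 pools, each panel with its own linear axis from 0. *Vegfa* and *Adm* are highest in pituicytes and at 0 in vascular endothelia, and the other 7 genes are highest in vascular endothelia.

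The ratio of pituicyte to IL cell CPM, over both pools, was 57.1 for *Vegfa* (exact 95% counting interval 24.2 to 177), and for *Adm* the interval was 21.5 to 159. Against macrophage/microglia, *Vegfa* was at least 35.2-fold higher in pituicytes. The bound against vascular endothelia was weaker because these cells were few, with *Vegfa* at least 4.27-fold and *Adm* at least 3.82-fold higher in pituicytes. In the fit, 2 of the 9 genes were called higher in pituicytes, where 16.8% of all genes tested were. The log2 fold was 6.82 for *Vegfa* (SE 0.49, adjusted p = 4.93e-42) and 6.94 for *Adm* (SE 0.51, adjusted p = 2.34e-39). *Nrp1* was called lower in pituicytes (log2 fold -2.80, SE 0.80, adjusted p = 0.00377), with 8.49 and 11.8 CPM, where 0.953% of all genes were called lower. This call was lost with the mitochondrial limit of 10% (log2 fold -2.30, adjusted p = 0.176) and with types given from the other pool without the 9 genes (log2 fold -2.41, adjusted p = 0.999999). Under the DESeq2 Wald test the *Adm* call was lost (log2 fold 5.76, adjusted p = 0.0639), while that of *Vegfa* passed (log2 fold 5.86, adjusted p = 1.02e-06). Without pool 1 the edgeR folds were 7.54 and 7.90, and without pool 2 they were 7.41 and 7.11, for *Vegfa* and *Adm* in that order.

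A UMI of each ligand gene was found in part of the pituicytes, and a cell without a UMI is not shown to lack the mRNA. A *Vegfa* UMI was present in 63.8% of the 196 pituicytes (exact Clopper-Pearson 95% interval 56.6 to 70.5%), with 63.9% in pool 1 and 63.6% in pool 2. An *Adm* UMI was present in 54.1% (46.8 to 61.2%), with 48.1% in pool 1 and 61.4% in pool 2. With all cells thinned to 1000 UMIs, the shares were 41.8% for *Vegfa* and 31.6% for *Adm*. Among T-cell like cells, taken as the background, 1 of 42 held a UMI of each gene (2.38%), at a median of 1596 UMIs per cell against 2056 in pituicytes. The highest number in a pituicyte was 8 UMIs for *Vegfa* and 10 for *Adm*. Together, 71 pituicytes held both, 54 *Vegfa* only, 35 *Adm* only and 36 neither. The share with both was 36.2%, and the product of the separate shares was 34.5%. The pools differed in direction, with 27.8% against a product of 30.8% in pool 1 and 46.6% against 39.0% in pool 2.

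The authors divided pituicytes into 3 clusters, whose mean levels differed more in *Adm* than in *Vegfa*, without a test between the clusters. In the deposited table, whose values are UMIs per 10000 averaged over the cells of both pools, *Adm* had the authors' mean of 6.96 in pituicytes a, 3.25 in b and 3.35 in c. From the summed counts, *Adm* stood at 651 and 695 CPM in pituicytes a, at 322 and 183 CPM in b and at 381 and 271 CPM in c. The 2 pools of pituicytes a lay above those of b and c, and b and c overlapped. *Vegfa* had authors' means of 6.25, 4.23 and 6.17. Its summed levels were 506 and 715 CPM in pituicytes a, 441 and 210 CPM in b and 539 and 430 CPM in c, so that a and c overlapped, b and c overlapped, and a stood above b in both pools. The clusters differ in quality measures too, with a median mitochondrial share of 9.90% in a, 17.0% in b and 20.7% in c, and median UMIs of 2214, 1452 and 2782. The part of these measures in the levels was not tested. With the mitochondrial limit set to 10%, 49 pituicytes were left, 11 of them in pool 1, and 69.4% held *Adm* and 65.3% *Vegfa*.

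**Figure D2:**
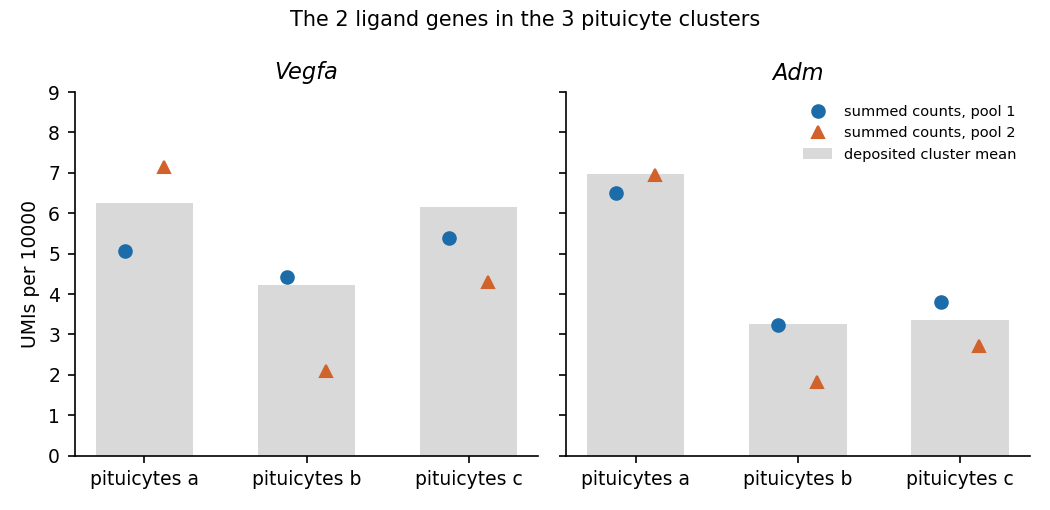
*Vegfa* and *Adm* in the 3 pituicyte clusters, in UMIs per 10000. Grey bars are the deposited cluster means and symbols the summed counts of each pool. *Adm* is highest in pituicytes a in both pools, while the pools of *Vegfa* overlap between pituicytes a and c.

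The receptors of VEGFA were highest in vascular endothelia. *Flt1* stood at 1146 CPM in endothelia of pool 1, from 13 UMIs, and at 1121 CPM in those of pool 2, from 14 UMIs. It had 0 UMIs in IL cells, macrophage/microglia, T-cell like cells and VLMC, 2 UMIs in pituicytes and 3 in epithelial-like cells. *Kdr* stood at 2203 CPM in endothelia of pool 1, from 25 UMIs, and at 1441 CPM in those of pool 2, from 18 UMIs. Elsewhere it had at most 33.8 CPM, the level in macrophage/microglia of pool 1. The endothelia, 2.46% of the cells, held 84.4% of the *Flt1* UMIs and 78.2% of the *Kdr* UMIs. Of the 6 *Kdr* UMIs in pituicytes, 5 were in 1 cell of pool 2. In macrophage/microglia, 3 of 4 *Kdr* UMIs were in the smaller cluster b, at 50.3 and 41.8 CPM, each from at most 2 UMIs. None of the types below endothelia in *Flt1* or *Kdr* was separated from its next neighbour by non-overlapping pools.

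In epithelial-like cells, all UMIs of *Flt1*, *Kdr*, *Plvap* and *Emcn* came from 2 cells of pool 2 with 6181 and 6028 UMIs in total, and these 2 cells held 5 and 3 UMIs of the other endothelial markers. The other epithelial-like cells of pool 2 held 0 to 5 such UMIs. Scrublet marked 0 cells of pool 2 as doublets, so it cannot tell whether these 2 cells are doublets. Epithelial-like cells of pool 1 had 0 UMIs of these 4 genes.

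Of the 9 genes, only the co-receptor gene *Nrp1* had UMIs in all 7 types. It stood at 1939 and 1842 CPM in vascular endothelia, from 22 and 23 UMIs, at 353 and 331 CPM in VLMC and at 192 and 241 CPM in macrophage/microglia. Epithelial-like cells had 51.8 and 50.8 CPM, T-cell like cells 36.4 and 34.4 CPM, pituicytes 8.49 and 11.8 CPM and IL cells 0 and 4.01 CPM. This is the full order, and no neighbours overlapped between pools, although the 4 lowest types rest on 1 to 5 UMIs each. Endothelia held 41.3% of the *Nrp1* UMIs. The endothelial level was 5.57 times that of VLMC (counting interval 2.60 to 13.7) and 8.63 times that of macrophage/microglia (5.56 to 13.4). Without the 2 VLMC cells that held oligodendrocyte markers, the VLMC level was 488 and 547 CPM.

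*Nrp1* was the only one of the 9 genes called higher in macrophage/microglia, where 16.5% of all genes were (log2 fold 2.41, SE 0.42, adjusted p = 1.27e-07). Higher genes made up 93.4% of all calls in this type, and 80.9% with scaling by library size alone. A UMI was present in 30 of the 95 cells, 31.6% (22.4 to 41.9%), with 34.1% in pool 1 and 29.6% in pool 2. Thinned to 1000 UMIs, the share was 23.2%, and in T-cell like cells it was 7.14% unthinned and 0 of 42 thinned, at median depths of 1739 and 1596 UMIs. Cluster a stood at 225 and 274 CPM and the smaller cluster b at 151 and 125 CPM, without overlap of the pools. *Vegfa* was at 0 UMIs in both pools of these cells, and *Adm* at 22.6 and 0 CPM.

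The genes of the adrenomedullin receptor had their highest mean level over both pools in vascular endothelia, with few UMIs. *Ramp2* stood at 617 and 480 CPM, from 7 and 6 UMIs, in endothelia, at 471 and 66.2 CPM, from 4 and 1 UMIs, in VLMC and at 4.24 and 7.89 CPM in pituicytes, and was at 0 in the other 4 types. The ratio of endothelia to VLMC was 2.57 with a counting interval of 0.861 to 9.22, which includes equal levels. Without the 2 VLMC cells that held oligodendrocyte markers, *Ramp2* in VLMC was 651 and 109 CPM, so that pool 1 of VLMC stood above both endothelial pools and the types overlapped. *Calcrl* stood at 353 and 160 CPM, from 4 and 2 UMIs, in endothelia and at 104 and 135 CPM, from 2 and 8 UMIs, in epithelial-like cells. Of the 4 UMIs in endothelia of pool 1, 3 were in the cell of 3608 UMIs in total. That cell is also the one of pool 1 with 10 *Rgs5* UMIs, and it had 0 UMIs of *Plvap*. Whether it is a mix of cells was not tested. VLMC had 236 and 0 CPM of *Calcrl* (326 and 0 CPM without those 2 cells), macrophage/microglia 11.3 and 0 CPM, and pituicytes, IL cells and T-cell like cells 0 UMIs. The ratio of endothelia to epithelial-like cells was 1.97 (0.590 to 6.00) and did not separate the levels of the types at this depth.

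*Calcrl* was the only one of the 9 genes called higher in epithelial-like cells, where 8.004% of all genes were (log2 fold 3.94, SE 0.90, adjusted p = 0.000381). The fold was 5.58 without pool 1 and 3.00 without pool 2. Its 10 UMIs were in 6 of the 23 cells, with 3 of them in the cell of 6028 UMIs described above, 26.1% before and after thinning, against 0 of 42 T-cell like cells, which allows up to 7.14%. Median depths were 2324 and 1596 UMIs. *Ramp2* had 0 UMIs in all 23 epithelial-like cells, which allows up to 38.3 CPM. Of other accessory genes, *Ramp1* had 155 and 16.9 CPM there and *Ramp3* 0 and 16.9 CPM. The hormone genes of the anterior lobe summed to 35358 and 2758 CPM in epithelial-like cells, and their part in the result was not tested. The DESeq2 test did not call *Calcrl* in this type (adjusted p = 0.174), and with the mitochondrial limit of 10% it had too few counts to be tested.

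The diaphragm gene *Plvap* and the sialomucin gene *Emcn* completed the endothelial group. *Plvap* stood at 1410 and 1361 CPM in endothelia, from 16 and 17 UMIs, at 12.7 and 15.8 CPM in pituicytes and at 0 and 50.8 CPM in epithelial-like cells, and was at 0 in the other 4 types. *Emcn* stood at 1763 and 2562 CPM in endothelia, from 20 and 32 UMIs, at 4.24 and 3.95 CPM in pituicytes and at 0 and 33.8 CPM in epithelial-like cells, and was at 0 in the other 4 types. Endothelia held 76.7% of the *Plvap* UMIs and 92.9% of the *Emcn* UMIs. *Emcn*, a feature gene of this type in the study, had the largest log2 fold of all 4510 genes tested in it.

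In the fit, 7 of the 9 genes were called higher in vascular endothelia, where 3.41% of all genes tested were. These were all but the 2 ligand genes. Higher genes made up 86.0% of all calls in this type, and 97.5% with scaling by library size alone. The log2 fold was 8.86 for *Emcn* (SE 0.62, adjusted p = 7.38e-43), 7.86 for *Plvap* (SE 0.72, adjusted p = 7.25e-25), 7.83 for *Flt1* (SE 0.79, adjusted p = 1.22e-20) and 7.56 for *Kdr* (SE 0.62, adjusted p = 2.76e-31). It was 6.37 for *Ramp2* (SE 0.97, adjusted p = 6.65e-09), 4.76 for *Nrp1* (SE 0.43, adjusted p = 4.62e-25) and 4.42 for *Calcrl* (SE 1.09, adjusted p = 0.00213). Under the DESeq2 test the calls of *Flt1* (adjusted p = 0.0694) and *Calcrl* (adjusted p = 0.115) were lost and the other 5 passed.

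The endothelial cells were then examined singly. All 4 of *Flt1*, *Kdr*, *Plvap* and *Emcn* were found in 8 cells, and the remaining 5 lacked 1 of them. *Flt1* and *Kdr* were found together in 10 cells. *Ramp2* was found in 9 cells, *Calcrl* in 4, both in 3 and at least 1 of them in 10. Total depth ranged from 1040 to 3608 UMIs. The cell of 3608 UMIs had 0 UMIs of *Plvap* and the cell of 2892 UMIs 0 of *Flt1*, while the cell of 1040 UMIs held all 4 genes. The share of endothelial cells with a UMI was 92.3% for *Kdr*, *Plvap* and *Emcn* and 84.6% for *Flt1* and *Nrp1*. It was 69.2% for *Ramp2* and 30.8% for *Calcrl*. After thinning these were 76.9% for *Kdr*, *Flt1* and *Nrp1*, 84.6% for *Plvap* and *Emcn*, 46.2% for *Ramp2* and 15.4% for *Calcrl*. T-cell like cells had 0 of 42 for each of these genes except *Nrp1*.

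**Figure D3:**
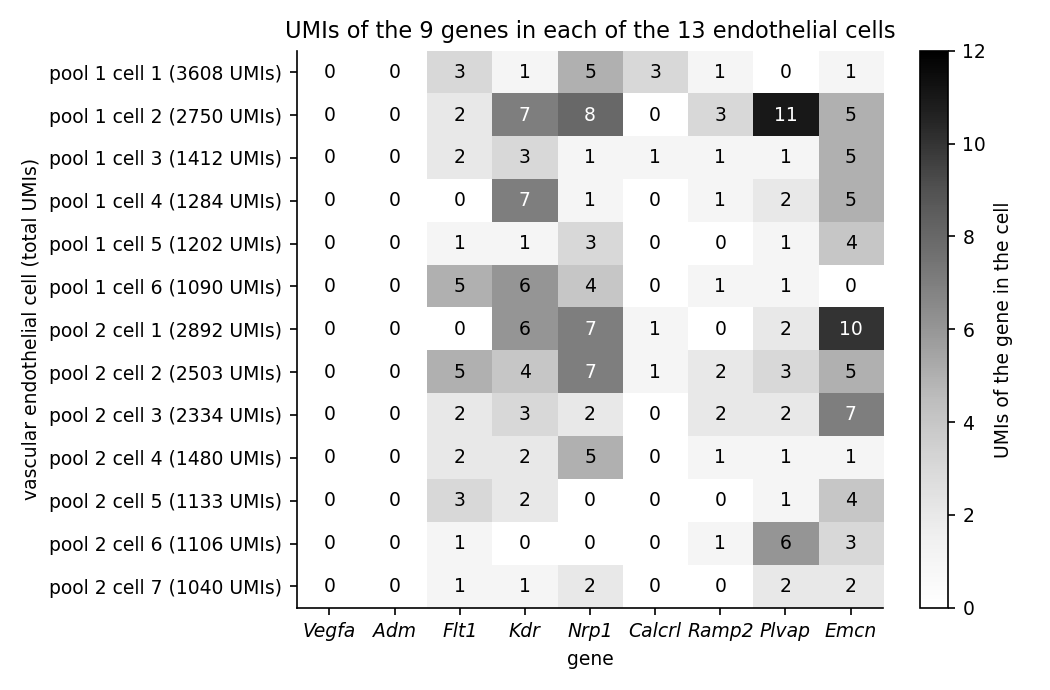
UMIs of the 9 genes in each of the 13 vascular endothelial cells, ordered by pool and depth, with the total UMIs of the cell in brackets. Columns *Vegfa* and *Adm* hold 0 in every cell, and each cell holds at least 3 of *Flt1*, *Kdr*, *Plvap* and *Emcn*.

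The ligand and receptor sides were then set against each other directly. All 9 genes were called between vascular endothelia and pituicytes. The 7 vascular genes were higher in endothelia, as were 3.50% of all genes, and the 2 ligand genes were lower in endothelia, as were 6.94% of all genes. The median log2 fold of all genes was -0.88. *Vegfa* had a log2 fold of -8.77 (SE 1.58, adjusted p = 1.77e-06) and *Adm* of -8.60 (SE 1.63, adjusted p = 6.33e-06). Both had 0 UMIs in endothelia, so the size of these folds rests on the prior count. By CPM, *Vegfa* was at least 4.27-fold and *Adm* at least 3.82-fold higher in pituicytes. The vascular genes ranged from 5.33 for *Ramp2* (SE 0.96, adjusted p = 2.00e-06) to 7.80 for *Emcn* (SE 0.65, adjusted p = 6.00e-29). As ratios of CPM, *Emcn* was 534 times (counting interval 140 to 4523), *Flt1* 277 times (69.6 to 2404) and *Plvap* 96.7 times (42.1 to 259) as high in endothelia as in pituicytes. *Calcrl* was at least 41.0-fold higher in endothelia. With scaling by library size alone, the median of all genes was -0.08 and the share of higher genes among the calls was 71.9% in place of 33.5%, while all 9 genes kept their call and direction. The DESeq2 test called 6 of the 9, without *Adm* (adjusted p = 0.253), *Flt1* (adjusted p = 0.146) and *Calcrl*, for which it gave no adjusted p. The edgeR fold of *Kdr* was 5.11 without pool 1 and 9.78 without pool 2, and that of *Flt1* was 6.19 and 8.84. Pituicytes of pool 1 had 0 UMIs of both genes, so the size of the folds without pool 2 rests on the prior count.

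**Figure D4:**
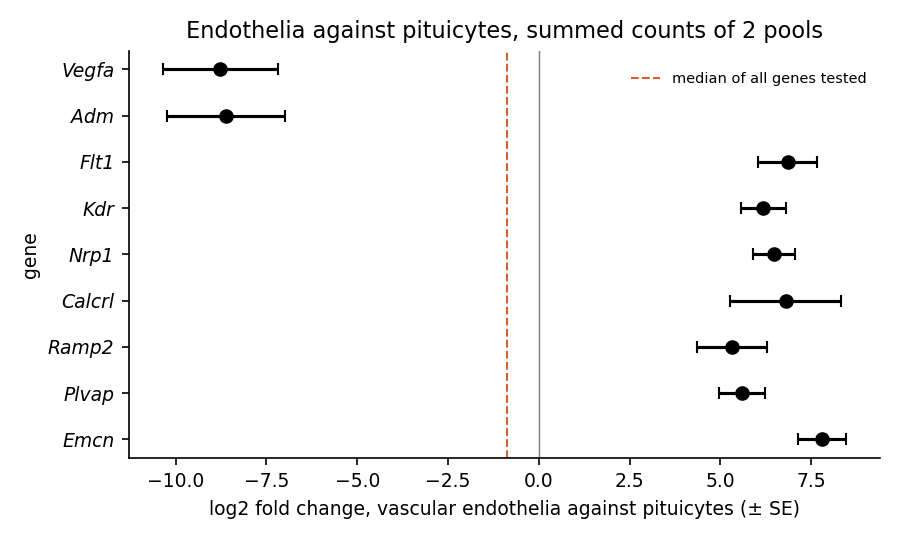
Log2 fold change of the 9 genes in vascular endothelia against pituicytes, from edgeR on counts summed per pool. Bars are the approximate SE, the size of the fold divided by the square root of its F statistic. The dashed line is the median of all genes tested, -0.88. *Vegfa* and *Adm* lie below it and the 7 vascular genes above 5. *Vegfa* and *Adm* had 0 UMIs in endothelia and *Calcrl* had 0 in pituicytes, so the size of these folds rests on the prior count.

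The other genes of the 2 pathways were counted from fixed lists. Of the 10 VEGF ligands and receptors, 5 were tested, and all but *Nrp2* are among the 9 genes. *Nrp2*, a co-receptor mainly of VEGFC and VEGFR3, was called higher in endothelia at 264 and 1281 CPM (log2 fold 5.31, SE 0.73, adjusted p = 7.71e-11). It was also called in macrophage/microglia at 45.1 and 64.9 CPM (log2 fold 2.13, SE 0.81, adjusted p = 0.0433). The other VEGF ligands had too few counts to be tested. *Vegfb* stood at 29.7 and 15.8 CPM in pituicytes and at 104 and 84.6 CPM in epithelial-like cells. *Pgf*, placental growth factor, which binds FLT1, stood at 17.0 and 55.2 CPM in pituicytes. It had 0 and 50.8 CPM in epithelial-like cells and 118 and 0 CPM in VLMC. *Flt4*, the receptor of VEGFC, had 4 UMIs in endothelia, all in 1 cell of pool 2. Of the 11 genes of the adrenomedullin and CGRP list, 4 had no UMI in any kept cell, namely *Adm2*, *Calca*, *Calcb* and *Calcr*. *Ramp1* was called higher in macrophage/microglia at 56.4 and 92.7 CPM (log2 fold 2.87, SE 0.94, adjusted p = 0.0133) and had 0 UMIs in endothelia. *Ramp3*, another accessory protein with which CALCRL binds adrenomedullin, stood at 88.1 and 400 CPM in endothelia, from 1 and 5 UMIs, and was not tested.

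Of 12 genes of fenestrae, caveolae and the glycocalyx, all had UMIs in the endothelia of both pools. So did 11.9% of the 16258 genes with a UMI in any kept cell, and 37.6% of the 4510 genes tested. Of the 10 tested, 8 were called higher in endothelia, where 3.41% of all genes were, and 3 of these 8 (*Emcn*, *Plvap* and *Nrp1*) are among the 9 genes. Without these 3, 5 of 7 were called, with a median log2 fold of 4.52 against -0.49 for all genes. Against pituicytes all 7 were called higher, where 3.50% of all genes were, with a median of 4.81 against -0.88. The list was chosen with earlier results known, and *Igfbp3* and *Podxl* passed the count filter through their endothelial counts. These shares are therefore not independent of the type. Beside *Emcn*, *Plvap* and *Nrp1*, *Igfbp3*, a binding protein of insulin-like growth factors, stood at 1322 and 1361 CPM (log2 fold 7.68, SE 0.72, adjusted p = 7.90e-24). *Podxl*, a sialomucin of the luminal surface, stood at 705 and 480 CPM (log2 fold 6.18, SE 0.96). *Esm1*, endocan, was called in endothelia at 264 and 561 CPM, and IL cells held it at 295 and 361 CPM. *Prkcdbp*, a caveolar protein gene, was called in endothelia at 353 and 561 CPM (log2 fold 4.52, SE 0.91) and in epithelial-like cells at 311 and 84.6 CPM (log2 fold 3.27, SE 0.88, adjusted p = 0.00428). The caveolar genes *Cav1* and *Sdpr* had 88.1 and 320 CPM and 176 and 80.1 CPM in endothelia, and were not tested.

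Of 16 genes of blood-brain barrier endothelium, 11 had 0 UMIs in the endothelia, with a limit of 126 CPM each, as did 67.1% of the 16258 genes with a UMI in any kept cell. Of the 11, *Slco1c1*, *Apcdd1* and *Foxf2* had no UMI in any kept cell and so lie outside those 16258. *Cldn5* and *Slco1a4* had 1 each, in pituicytes. The share at 0 thus does not set this list apart from all genes. Among these 11 were the glucose transporter gene *Slc2a1*, the lipid transporter gene *Mfsd2a*, the junction genes *Ocln* and *Cldn5* and the organic anion transporter gene *Slco1a4*. *Slc2a1* and *Ocln* were found in pituicytes, at 67.9 and 51.3 CPM and at 55.2 and 75.0 CPM. Of the 4 tested, *Itm2a* was called higher in endothelia at 1410 and 480 CPM (log2 fold 6.30, SE 0.75), and the transporter gene *Abcg2*, at 353 and 80.1 CPM, was called only against pituicytes (log2 fold 3.96, SE 1.26, adjusted p = 0.0222). With 13 cells, a level under the limit cannot be told from absence.

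**Figure D5:**
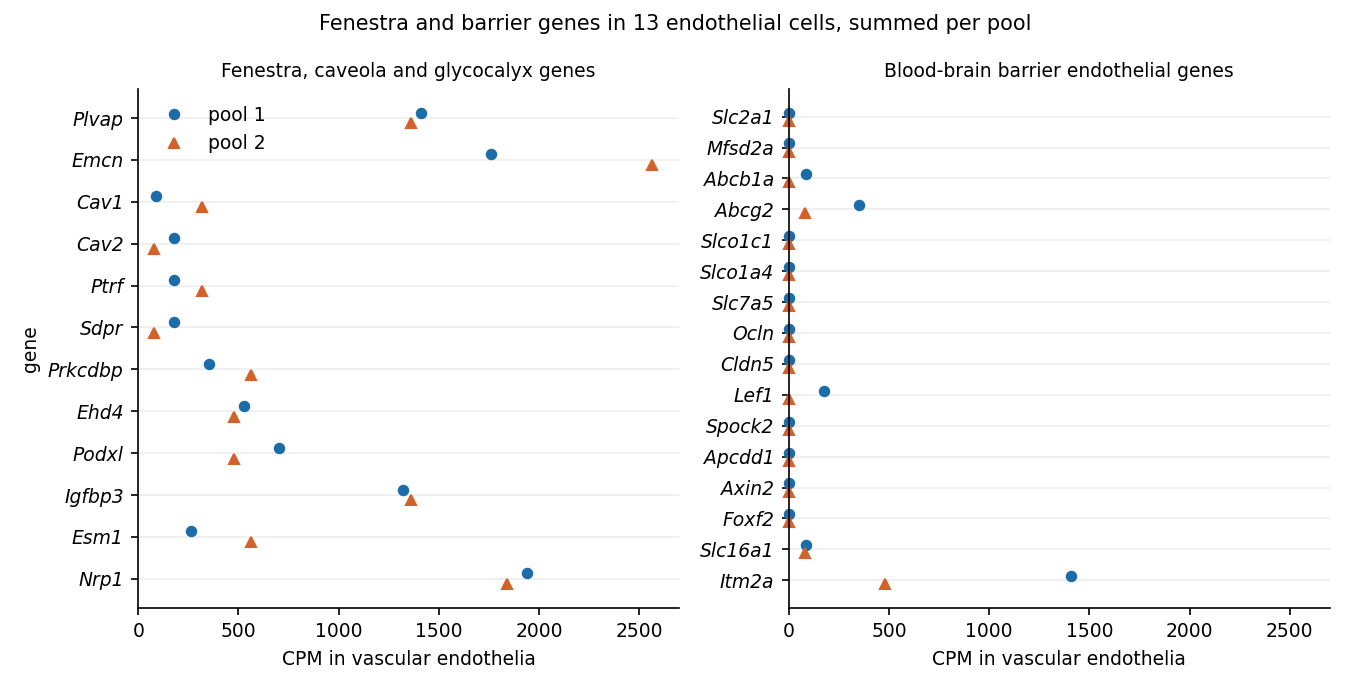
Level of 12 fenestra, caveola and glycocalyx genes (left) and 16 blood-brain barrier genes (right) in vascular endothelia, in CPM, with circles for pool 1 and triangles for pool 2. All 12 genes on the left have UMIs in both pools, and 11 of the 16 on the right are at 0 in both. Of the 16258 genes with a UMI in any kept cell, 11.9% had UMIs in the endothelia of both pools and 67.1% were at 0.

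Other vessel ligands and receptors were mostly too low to test, with 4 of 22 tested. *S1pr1*, a sphingosine 1-phosphate receptor, was called in pituicytes at 110 and 118 CPM (log2 fold 3.99, SE 0.68) and in macrophage/microglia at 78.9 and 37.1 CPM (log2 fold 3.05, SE 0.92, adjusted p = 0.00615). In endothelia *S1pr1* stood at 264 and 80.1 CPM, from 3 and 1 UMIs. It was not called there (log2 fold 3.61, SE 1.25, adjusted p = 0.0788). *Efnb2*, an ephrin of arterial endothelium, was called in endothelia at 264 and 160 CPM (log2 fold 4.61, SE 1.28, adjusted p = 0.0110). It was also called in epithelial-like cells at 0 and 186 CPM, and *Ednrb*, an endothelin receptor, at 569 and 609 CPM (log2 fold 5.60, SE 0.55). *Apln*, which encodes the ligand of the receptor APLNR, had 89.1 and 67.1 CPM in pituicytes and 51.8 and 84.6 CPM in epithelial-like cells. In endothelia *Apln* had 0 UMIs, which allows up to 126 CPM and so does not set them below pituicytes. *Aplnr* had its 3 UMIs of the kept cells in endothelia of pool 2. Neither had enough counts to be tested. Of 16 Wnt and TGF-beta factors linked to vessel permeability, 5 were tested and 4 were called higher in pituicytes, where 16.8% of all genes were. These were *Tgfb2* (89.1 and 55.2 CPM, log2 fold 3.84), *Sfrp5* (63.7 and 86.8 CPM, 3.64), *Reck* (59.4 and 35.5 CPM, 3.14) and *Dkk3* (80.6 and 51.3 CPM, 3.07). None of the 4 was highest in pituicytes. *Sfrp5* (155 and 203 CPM) and *Dkk3* (259 and 118 CPM) stood higher in epithelial-like cells, where both were also called. In endothelia, *Tgfb2* had 176 and 80.1 CPM, from 2 and 1 UMIs, and *Reck* 88.1 and 160 CPM, from 1 and 2 UMIs. *Wnt7a* and *Wnt7b*, the Wnt ligands of the brain barrier, had no UMI in any kept cell.

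Because *Vegfa* and *Adm* are hypoxia-inducible, the other genes of such a list were examined in pituicytes. Of 24, 13 were tested and 6 were called higher, where 16.8% of all genes were. Without the ligand genes, 4 of 11 were called, with a median log2 fold of 1.34 against 0.59 for all genes. These were *Eno1* (221 and 221 CPM, log2 fold 2.96), *P4ha1* (102 and 75.0 CPM, 2.41), *Epas1* (67.9 and 63.1 CPM, 2.05) and *Hif1a* (102 and 162 CPM, 1.84). They encode a glycolytic enzyme, a collagen prolyl hydroxylase and 2 hypoxia-inducible transcription factors. Only *Eno1* and *Hif1a* had their highest mean level in pituicytes. *P4ha1* stood at 104 and 118 CPM in epithelial-like cells. *Epas1* stood at 118 and 331 CPM in VLMC and at 259 and 33.8 CPM in epithelial-like cells. *Higd1a* and *Aldoa* of the same list were tested and not called in pituicytes, and *Higd1a* stood there at 259 and 245 CPM. In endothelia, *Epas1* stood at 176 and 961 CPM and was called higher (log2 fold 4.68, SE 0.81). *Ndrg1*, at 353 and 160 CPM, was also called higher there (log2 fold 3.28, SE 1.04, adjusted p = 0.0379). *Ldha* was called lower in endothelia with 0 UMIs, which allows up to 126 CPM. This limit lies above the *Ldha* level of IL cells, 67.6 and 72.1 CPM, and below that of macrophage/microglia, 169 and 158 CPM.

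The genes whose levels over the 14 sums were most like those of each of the 9 were named by Pearson's r of log2(CPM + 100) among all other genes tested. These sums share their library by pool, and the r of a gene held by 1 type rests on that type. For *Vegfa* they were *Fat3*, *Tmem44* and *Slc41a1*, with r between 0.991 and 0.994. For *Adm* they were *Ism2*, *Htra1* and *Rax*, with r of 0.989 to 0.991. *Egfl7* came first for *Flt1* (0.997), *Plvap* (0.998) and *Emcn* (0.998). The next were *Slc9a3r2* and *Tmem88* for both *Flt1* and *Plvap*, and *Esam* and *Ptprb* for *Emcn*. *Kdr* was nearest to *Ptprb* (0.996), *Rgs5* (0.994) and *Slc9a3r2* (0.992). *Ramp2* was nearest to *Col15a1* (0.951), *Col4a1* (0.934) and *Bivm* (0.932), and *Calcrl* to *Cav2* (0.949), *Emp1* (0.910) and *Ptrf* (0.910). *Nrp1* was nearest to *Tax1bp3* (0.922), *Col4a1* (0.919) and *Cd34* (0.916).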

How the data were processed

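Single-cell libraries of 2 pools of mouse NH were used. The deposited matrices hold UMI counts of genes by barcodes (Cell Ranger 2.0.0, mm10), not normalized by the authors. That of pool 1 holds all 737280 barcodes, 170936 of them with a UMI, and that of pool 2 the 1500 forced cells. A deposited table gives linear means per cluster over both pools, in UMIs per 10000 (Seurat 2.3). Versions are from the submitters' processing notes and the study's methods.

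The study's limits kept cells of over 1000 and under 10000 UMIs with 400 to 5000 genes, of which mitochondrial transcripts made up less than 25%. Kept cells held 699676 UMIs in pool 1 and 726706 in pool 2. The cluster of each cell was solved from the deposited means by non-negative weights, and the smallest leading weight was 0.989. No doublets were removed. Scrublet (scanpy 1.11.5) marked 3 cells of pool 1 and 0 of pool 2.

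Counts summed per type and pool (8491 to 281271 UMIs) were tested in edgeR 4.0.16 (R 4.3.3, TMM, minimum count 5, minimum total 15, 7 residual degrees of freedom). The fit was tested on simulated counts. Since each pool supplied every type from its own 5 mice, the sums are paired by pool. Their deviations correlated with r between -0.03 and 0.15 over 21 pairs of types. Alternatives were library size alone, DESeq2 1.42.0 size factors and Wald test, no count filter, the replicate block, a mitochondrial limit of 10%, no doublets, types given from the other pool without these genes, and each pool left out. Leaving out 2 VLMC cells was added after the data were seen. Thinning used a fixed seed. Intervals and limits cover counting error only. The p-values rest on a spread between the 2 pools that edgeR estimates over all types and shares across genes. They do not measure the agreement of the 2 pools for a single gene.

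The 9 genes, the gene lists and the marker lists were chosen with earlier results of these data known. Genes other than the 9 are named where they were called with one of the 4 largest folds of their list, where they were nearest in pattern to one of the 9, or where their level bears on a result. The latter, untested genes included, were chosen after their values were seen. Promoter windows come from RefSeq.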

Additional observations from a re-analysis of the deposited data

Results flagged for a closer look

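UMIs of all 9 genes were found in barcodes that failed a limit and entered no comparison. The counted barcodes held 240 UMIs of *Vegfa*, 248 of *Adm*, 56 of *Flt1*, 78 of *Kdr*, 159 of *Nrp1*, 30 of *Calcrl*, 64 of *Ramp2*, 84 of *Plvap* and 100 of *Emcn*. Each number lies above the 3 counts that a count of 0 allows. In pool 1, 157608 barcodes had 50 UMIs or fewer, and in their sum *Vegfa* stood at 43.9 CPM, *Adm* at 57.1 CPM and *Emcn* at 28.0 CPM. The level there was 0.247 times that of the kept cells for *Vegfa*, 0.357 times for *Adm*, 0.933 times for *Emcn* and 1.11 times for *Ramp2*. Their part in the levels of the types was not tested.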

How the results depend on the processing

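Of 185 fitted folds of the 9 genes under the alternatives, 177 kept their direction and their side of the threshold, 8 lost the call and 0 reversed. The DESeq2 test lost 6 of these, and the lower *Nrp1* in pituicytes was lost with the mitochondrial limit of 10% and with types given from the other pool. The total leaves out *Calcrl* with that limit, since it could not be tested, and its DESeq2 value between endothelia and pituicytes. The replicate block changed no call on the 9 genes. Under the DESeq2 test, 1 of the 9 genes was called higher in pituicytes and 0 in epithelial-like cells, and the counts over all genes were 357 in place of 756 for pituicytes, 178 in place of 361 for epithelial-like cells and 208 in place of 471 between endothelia and pituicytes. With a mitochondrial limit of 10%, 0 of the 9 were called in epithelial-like cells, 6 in endothelia and 8 between endothelia and pituicytes, and the counts were 215 for pituicytes, 120 for epithelial-like cells, 405 in place of 745 for macrophage/microglia and 186 between endothelia and pituicytes, with fewer cells in each type. Without the count filter 2017 genes were higher in pituicytes, and with scaling by library size alone 237 in place of 154 were higher in endothelia. Leaving out the 2 VLMC cells, an alternative chosen after seeing the data, ended no call on the 9 genes.

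Thinning lowered the share of pituicytes with *Vegfa* to 41.8% and with *Adm* to 31.6%, and the limit of 10% raised that of *Adm* to 69.4%. With each pool left out in turn, the share ranged from 48.1 to 61.4% for *Adm* in pituicytes, and in endothelia from 85.7 to 100% for *Kdr*, 71.4 to 100% for *Nrp1* and 83.3 to 100% for *Plvap* and *Emcn*. From summed counts rather than the authors' means, in UMIs per 10000, *Vegfa* in pituicytes c was 4.99, and in endothelia *Flt1* was 11.3, *Nrp1* 18.9 and *Plvap* 13.8. With each pool left out, these sums ranged from 2.10 to 4.41 for *Vegfa* in pituicytes b, 4.30 to 5.39 for *Vegfa* in c, 6.51 to 6.95 for *Adm* in a and 1.83 to 3.22 for *Adm* in b. In endothelia they ranged from 11.2 to 11.5 for *Flt1*, 14.4 to 22.0 for *Kdr*, 18.4 to 19.4 for *Nrp1*, 1.60 to 3.53 for *Calcrl* and 13.6 to 14.1 for *Plvap*. The 23834 UMIs of the endothelia limit every value in them.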
